A study of Rattus norvegicus with 17 samples.

Results

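Genes that mark B lymphocytes were followed in RNA of sorted CD4+ T helper cells from rats fed diets with different amounts of vitamin D. The 9 genes Cd79a, Cd79b, Ms4a1, Cr2, Fcrla, Ebf1, Blnk, Pax5 and Cd22 were looked up by symbol among the rows of the array table that are annotated to exactly 1 gene. A row was found for 7 of the 9, each with 1 transcript cluster, out of 14506 genes with such a row. Cd79a and Pax5 were not among the annotated rows and were not analysed here. The mean level of 6 genes (Cd79b, Cr2, Fcrla, Ebf1, Blnk and Cd22) was above the filter on dim genes, a log2 value of 5.321, and these entered the test over 10879 genes. Ms4a1 lay below it, with a mean of 5.117. Cr2 passed the filter through the supplemented arrays, since its mean without them was 5.217.

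All rats were female Dark Agouti rats, an inbred strain, immunized with myelin oligodendrocyte glycoprotein (MOG) to start experimental autoimmune encephalomyelitis (EAE), an inflammatory disease of the central nervous system used to model multiple sclerosis. Vitamin D in the feed was set at 0 IU in the deprived group (5 arrays), 2 IU in the regular group (6 arrays) and 10 IU in the supplemented group (6 arrays), starting 5 weeks before immunization and kept up throughout. At day 7 after immunization the CD4+ cells of the inguinal nodes were isolated by fluorescence-activated sorting, and each array holds the RNA of 1 sample. The series was made to ask how vitamin D in the diet acts on the transcriptome of these cells, so all 3 groups carry the immunization and none is untreated. The labels do not describe the gate of the sort, and CD4 is also carried by rat macrophages. All 14 annotated T cell markers, Cd4 and Cd3e among them, lay above the filter on dim genes. So did 10879 of all 14506 genes. Of the macrophage, monocyte and neutrophil markers 10 of 15 lay above it, and of the follicular dendritic and stromal markers 9 of 10. Passing the filter therefore cannot show whether the sorted cells matched their label.

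B cells recognise antigen through a surface immunoglobulin that signals by way of the CD79A and CD79B chains. The adaptor BLNK links the receptor's kinase to downstream enzymes, the coreceptor CR2 (CD21) binds complement fragments on antigen and lowers the threshold, and CD22 carries inhibitory motifs that dampen the signal. EBF1 and PAX5 are transcription factors of the B lineage, MS4A1 is the membrane protein CD20, and FCRLA is an intracellular Fc receptor-like protein of B cells. In a lymph node, B cells fill the follicles, which lie next to the T cell zone. CR2 is also found on follicular dendritic cells, EBF1 in some stromal cells and BLNK in macrophages.

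Promoters are shown for 3 of the 4 genes that were higher on the supplemented than on the regular diet, Cr2, Fcrla and Blnk, and for Cd22, whose mean lay the other way. The window of Ebf1, also higher, is not shown and held no match to any of the sites below. Each window is from RefSeq (GRCr8), 250 bases before to 50 bases after the annotated start, read in the direction of the gene. Capitals mark matches, on either strand, to the octamer ATGCAAAT, the EBF core CCCNNGGG, the E-boxes CAGGTG and CAGCTG, the PU.1 core GAGGAA or the vitamin D response element.
Cr2 (chr13:109244457-109244756, minus strand): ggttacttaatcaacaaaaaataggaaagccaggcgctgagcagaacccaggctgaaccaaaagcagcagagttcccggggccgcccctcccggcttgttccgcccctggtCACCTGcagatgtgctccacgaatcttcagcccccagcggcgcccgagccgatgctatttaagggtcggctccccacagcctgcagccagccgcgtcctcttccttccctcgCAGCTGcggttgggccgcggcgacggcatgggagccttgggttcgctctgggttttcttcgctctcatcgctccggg
Fcrla (chr13:85702777-85703076, minus strand): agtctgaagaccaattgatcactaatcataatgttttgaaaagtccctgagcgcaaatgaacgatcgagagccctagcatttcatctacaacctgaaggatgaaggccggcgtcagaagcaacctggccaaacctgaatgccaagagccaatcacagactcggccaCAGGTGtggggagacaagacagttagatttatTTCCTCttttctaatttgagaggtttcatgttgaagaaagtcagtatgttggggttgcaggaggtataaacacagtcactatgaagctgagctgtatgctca
Blnk (chr1:249770484-249770783, minus strand): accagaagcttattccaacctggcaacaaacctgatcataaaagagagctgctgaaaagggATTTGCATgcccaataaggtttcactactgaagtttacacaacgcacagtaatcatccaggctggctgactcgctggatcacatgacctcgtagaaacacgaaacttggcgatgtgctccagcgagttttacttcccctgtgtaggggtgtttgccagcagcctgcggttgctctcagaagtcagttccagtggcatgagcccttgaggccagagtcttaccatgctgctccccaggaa
Cd22 (chr1:95259681-95259980, minus strand): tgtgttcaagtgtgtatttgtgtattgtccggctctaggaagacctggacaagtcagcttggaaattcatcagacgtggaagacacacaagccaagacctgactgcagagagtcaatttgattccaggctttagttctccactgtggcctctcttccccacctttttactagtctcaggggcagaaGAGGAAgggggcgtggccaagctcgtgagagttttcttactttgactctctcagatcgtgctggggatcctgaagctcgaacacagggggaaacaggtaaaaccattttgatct

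The promoter table held 6 of the 9 genes, namely Cd79a, Cr2, Fcrla, Ebf1, Blnk and Cd22. The octamer, a site of OCT factors in B cell promoters, occurred in the Blnk window at position -189 from the start and in 1.78% of all 33469 windows. CAGGTG, a site of E2A factors, occurred in Cr2 (-139), Fcrla (-84) and Cd79a (-155), and in 18.8% of all windows. CAGCTG occurred in Cr2 alone (-27) among the 6 and in 15.1% of all, and GAGGAA in Fcrla (-52), Cd22 (-64) and Cd79a (-141) and in 27.6% of all. Neither the EBF core (12.4% of all windows) nor the vitamin D response element, a pair of half-sites spaced by 3 bases (0.0986% of all), was among the letters of these 6 windows. These matches describe the letters and are not evidence of binding.

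Of these genes, 4 were measured at a higher level on the supplemented diet than on the regular diet: the coreceptor Cr2, the Fc receptor-like gene Fcrla, the lineage factor Ebf1 and the adaptor Blnk. Of the 6 tested genes, 4 were higher, 0 lower and 2 did not pass (limma, Benjamini-Hochberg adjusted p below 0.05 over all genes). The share of all tested genes called higher in this comparison was 10.8%, and 22.9% were called lower. After median centring of the arrays the shares were 2.87% and 30.7%, and of the 6 genes 2 were called higher (Cr2 and Fcrla) and 1 lower (Cd22). Cr2 had to differ to enter the test, as its place above the filter came from the supplemented arrays, so the count is given as a description. The median change of the 6 genes, Cr2 included, was 0.33 on the log2 scale, against 0.001 over all genes tested. The value for all genes is not matched for level. Among all genes split into 4 level groups, dim to bright, it was 0.11 in group 1 (with Cr2, Fcrla and Blnk). It was 0.061 in group 2 (with Ebf1) and -0.085 in group 3 (with Cd79b and Cd22). The 6 genes were chosen with earlier results of these data known, so their median is given as a description. Between the supplemented and the deprived diet, 3 genes were higher (Cr2, Fcrla and the receptor chain Cd79b), 1 was lower (the inhibitory receptor Cd22) and 2 did not pass. In that comparison 18.6% of all genes were higher and 28.6% lower, and 5.58% and 38.4% after median centring, where again 3 of the 6 genes were higher and 1 lower. Between the deprived and the regular diet 0 of the 6 passed in limma, against 1.67% of all genes. At an unadjusted p below 0.05 it was 1 of the 6 (Cd79b, lower), against 16.7% of all genes. The 3 comparisons share their arrays in pairs and are not independent of each other. In sorted bulk RNA, fewer cells of a type and less RNA per cell cannot be told apart.

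**Figure D1:**
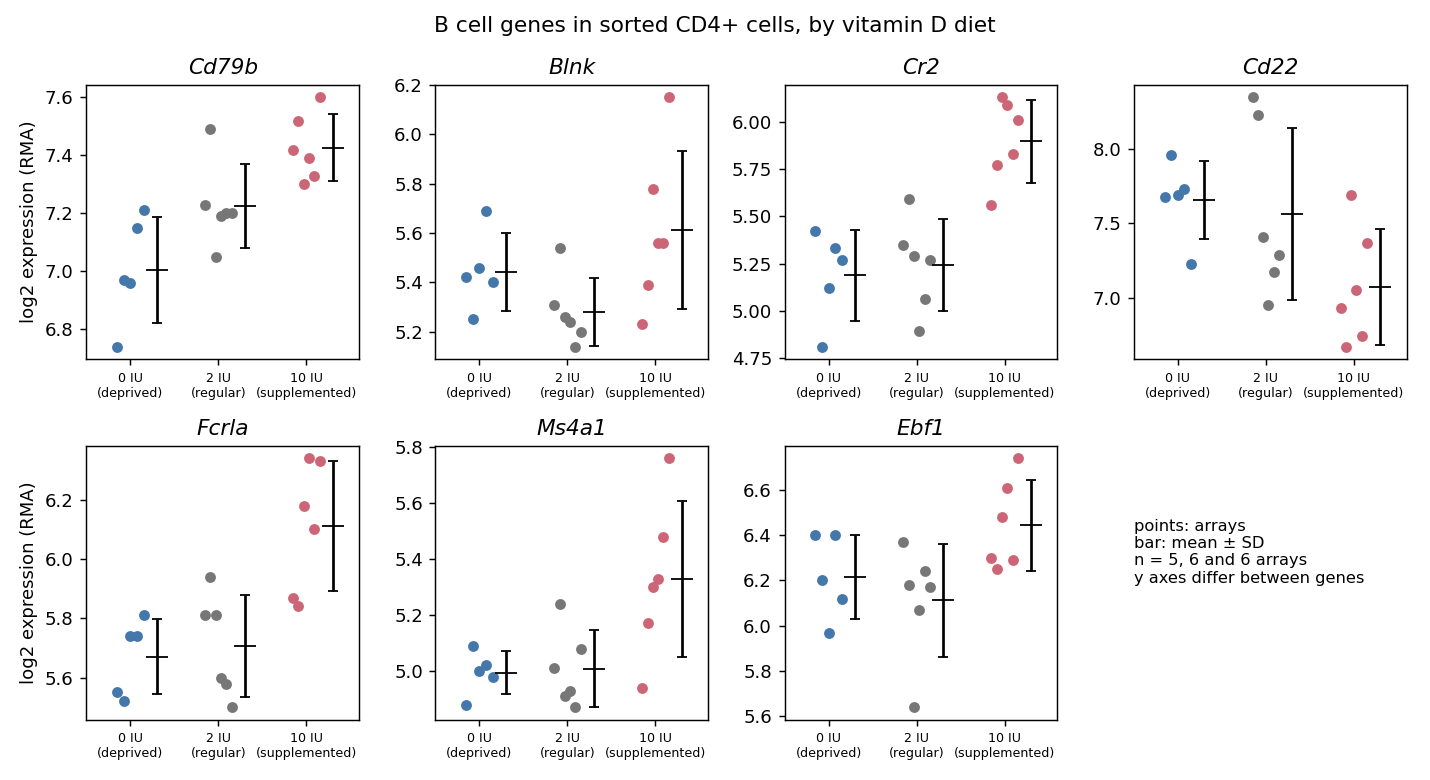
Log2 expression of each B cell gene on every array, by vitamin D content of the diet (0, 2 and 10 IU; 5, 6 and 6 arrays); points are arrays and bars are means with SD. Cr2 reached 5.56 to 6.13 on the supplemented arrays, and Cd22 lay lower there, with a mean of 7.074.

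The receptor chain Cd79b had mean log2 values of 7.005 ± 0.183 on the deprived diet (SD, n = 5), 7.225 ± 0.144 on the regular diet (n = 6) and 7.427 ± 0.116 on the supplemented diet (n = 6). It had log2 values of 6.74, 6.97, 6.96, 7.15 and 7.21 on the deprived arrays. On the regular arrays the lowest was 7.05, the median 7.2 and the highest 7.49, and on the supplemented arrays they were 7.3, 7.41 and 7.6. The supplemented arrays lay above all deprived arrays and overlapped with the regular ones through the highest regular value. Supplemented minus deprived was 0.42 (SE 0.085, n = 6 and 5, limma adjusted p = 0.000418, higher in 6 of 6 supplemented arrays), a 1.34-fold difference. Supplemented minus regular was 0.20 (SE 0.081, adjusted p = 0.0584, 95% interval 0.034 to 0.37) and deprived minus regular -0.22 (SE 0.085, adjusted p = 0.186, 95% interval -0.397 to -0.044). Neither of these passed the threshold. The difference between supplemented and regular diet passed after quantile normalization (adjusted p = 0.0455) and without deprived replicate 2, regular replicate 2 or supplemented replicate 3 (0.0415, 0.0191 and 0.0393). Over the 30 alternatives of that difference the adjusted p ran from 0.0191 to 0.886.

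Cr2, the complement receptor of the coreceptor complex, had the largest difference of the 6 tested genes in both supplemented comparisons. Its place above the filter on dim genes came from the supplemented arrays, so its tests are given as a description. Its values were 5.42, 4.81, 5.12, 5.33 and 5.27 on the deprived arrays. They had a lowest value of 4.89, a median of 5.28 and a highest of 5.59 on the regular arrays, and of 5.56, 5.92 and 6.13 on the supplemented arrays. The supplemented arrays did not overlap with the deprived arrays, and 1 supplemented value lay just under the highest regular one. Supplemented minus regular was 0.66 (SE 0.12, n = 6 and 6, adjusted p = 0.000196), a 1.58-fold difference, and supplemented minus deprived was 0.71 (SE 0.12, n = 6 and 5, adjusted p = 8.37e-05). All 6 supplemented arrays were above the mean of either other diet. Deprived minus regular was -0.053 (adjusted p = 0.874), with a 95% interval of -0.306 to 0.199.

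Fcrla, the intracellular Fc receptor-like gene, was also higher on the supplemented diet than on either other diet. The deprived arrays read 5.55, 5.52, 5.74, 5.74 and 5.81. The regular arrays had a lowest value of 5.5, a median of 5.7 and a highest of 5.94, and the supplemented arrays had 5.84, 6.14 and 6.34. Every supplemented array exceeded every deprived array, while the highest regular array lay among the lower supplemented ones. Supplemented minus regular was 0.40 (SE 0.094, adjusted p = 0.00235, higher in 6 of 6) and supplemented minus deprived 0.44 (SE 0.098, adjusted p = 0.0011, higher in 6 of 6). Deprived minus regular was -0.036 (adjusted p = 0.897, 95% interval -0.24 to 0.167).

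Ebf1, the transcription factor that opens the B lineage programme, had deprived values of 6.4, 6.2, 5.97, 6.4 and 6.12. On regular arrays the lowest was 5.64, the median 6.18 and the highest 6.37, and on supplemented arrays they were 6.25, 6.39 and 6.74. The groups overlapped in each comparison. Supplemented minus regular was 0.33 (SE 0.108, adjusted p = 0.0226, higher in 6 of 6), whereas supplemented minus deprived was 0.23 and did not pass (adjusted p = 0.0995, 95% interval -0.007 to 0.465). Deprived minus regular was 0.10 (adjusted p = 0.705, 95% interval -0.134 to 0.338). The call was lost after quantile normalization (adjusted p = 0.0948), cyclic loess (0.119) or median centring (0.0873), and without regular replicate 3 (0.0654), the lowest array, or supplemented replicate 6 (0.058), the highest. Its adjusted p ran from 0.0138 to 0.385 over 29 alternatives.

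Blnk, the adaptor downstream of the receptor, read 5.42, 5.25, 5.46, 5.69 and 5.4 on the deprived arrays. The regular arrays had a lowest value of 5.14, a median of 5.25 and a highest of 5.54, and the supplemented arrays had 5.23, 5.56 and 6.15. One supplemented array, replicate 6, stood above all the others, and the groups overlapped. Supplemented minus regular was 0.33 (SE 0.112, adjusted p = 0.0259, higher in 5 of 6). Supplemented minus deprived was 0.17 (adjusted p = 0.235, 95% interval -0.074 to 0.413) and deprived minus regular 0.16 (adjusted p = 0.516, 95% interval -0.08 to 0.408). The call ended without supplemented replicate 6 (adjusted p = 0.0637), supplemented replicate 3 (0.05, rounded from above the threshold) or regular replicate 5 (0.0535). It also ended after quantile normalization (0.132), cyclic loess (0.169) and median centring (0.0898), and the range over 29 alternatives was 0.00636 to 0.567.

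Ms4a1, the gene of CD20, was dim on all diets. Its deprived values were 4.88, 5.09, 5, 5.02 and 4.98. The regular arrays had a lowest value of 4.87, a median of 4.97 and a highest of 5.24, and the supplemented arrays had 4.94, 5.31 and 5.76. The supplemented mean exceeded the regular mean by 0.32 and the deprived mean by 0.33, with 5 of 6 supplemented arrays above either mean and overlap between all diets. It was tested where no filter on dim genes was used (adjusted p = 0.0188 and 0.0134) and where all transcript clusters were tested (0.0298 and 0.0212).

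Cd22, the inhibitory receptor, was lower on the supplemented than on the deprived diet. Its deprived values were 7.68, 7.96, 7.69, 7.73 and 7.23. The regular arrays ran from 6.95 over a median of 7.35 to 8.35, and the supplemented arrays from 6.67 over 6.99 to 7.69. The SD was 0.264 on the deprived, 0.581 on the regular and 0.392 on the supplemented diet, and regular replicates 1 and 2 stood above all other arrays at 8.35 and 8.23. All diets overlapped. Supplemented minus deprived was -0.585 (SE 0.218, n = 6 and 5, adjusted p = 0.0319), with 5 of 6 supplemented arrays below the deprived mean. Supplemented minus regular was -0.49 (SE 0.207, adjusted p = 0.0704, 95% interval -0.922 to -0.062) and did not pass. Deprived minus regular was 0.094 (adjusted p = 0.878, 95% interval -0.357 to 0.545).

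The call of Cd22 against the deprived diet depended on single arrays. It did not pass when any of deprived replicates 2, 3, 4 and 5 or supplemented replicates 1, 2 and 5 was left out (adjusted p 0.0549 to 0.0818), nor after quantile normalization (0.0532) or cyclic loess (0.0615). It also ended with a robust variance trend (0.0655), with all transcript clusters tested (0.0567), without both supplemented replicates 2 and 5 (0.191) and with array spread as a covariate (0.546), so that 17 of 30 alternatives passed. The adjusted p ran from 0.00793 to 0.546. The difference from the regular diet passed after median centring (0.0477) and without regular replicate 4 (0.0265), regular replicate 5 (0.0468) or supplemented replicate 3 (0.0228), in a range of 0.0228 to 0.609.

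**Figure D2:**
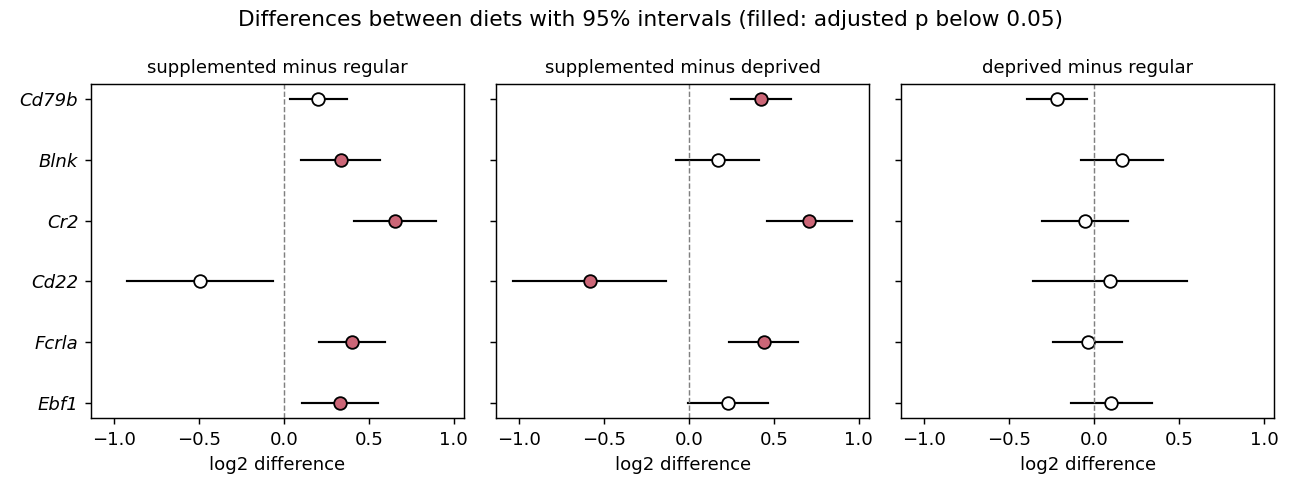
Differences of mean log2 values between diets for the 6 tested B cell genes, with 95% intervals from the limma fit; filled points have an adjusted p below 0.05. Cr2 has the largest positive difference (0.66 and 0.71), Cd22 lies below 0 in both supplemented comparisons, and no gene is filled in the comparison of deprived with regular diet.

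In the moderated F test over the 3 diets, Cr2 (adjusted p = 6.59e-05), Fcrla (0.00113), Cd79b (0.00148) and Ebf1 (0.0414) passed, and Blnk (0.0525) and Cd22 (0.0538) did not. In the same test 45.3% of all genes passed. Among the B cell genes, 3 of 6 (Cd79b, Cr2 and Fcrla) had supplemented values that did not overlap with the deprived values and lay above them, which held for 6.4% of all genes. Cr2 passed the filter only through its supplemented arrays, and without it the count was 2 of 5. In the supplemented and regular diets, 0 of 6 were free of overlap, where 2.22% of all genes lay wholly above and 9.92% wholly below.

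The share of genes called in each direction varied with their level. The tested genes were divided by mean level into 4 groups of equal size, numbered from dim to bright. Cr2, Fcrla and Blnk belonged to level group 1, in which 18.1% were called higher and 2.32% lower on the supplemented than on the regular diet. Ebf1 was in level group 2 (15.2% higher, 7.98% lower). Cd79b and Cd22 were in level group 3, where 5.81% were higher and 28.6% lower. Against the deprived diet, 34.4% of level group 1 were called higher and 2.43% lower, and in level group 3, with Cd79b (called higher) and Cd22 (called lower), 10.2% were higher and 35.6% lower. Level group 4 held none of the 6 genes, and there 4.01% were higher and 52.6% lower against the regular diet, with a median change of -0.207, against 0.11 in level group 1.

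Array spread, taken as the SD of all log2 values of an array, also moved with the diet. It was 2.051 ± 0.0166 on deprived arrays (SD, n = 5), 2.026 ± 0.022 on regular arrays (n = 6) and 1.943 ± 0.0271 on supplemented arrays (n = 6), and the ranges of the supplemented and the other arrays did not meet. With the spread as a covariate in limma, 0 of the 6 genes passed in either supplemented comparison, as did 0 of 10879 genes. At an unadjusted p below 0.05, it was 3 of the 6 genes and 1192 of all genes against the regular diet, and 2 of the 6 and 1206 of all against the deprived diet. In that fit supplemented minus regular was 0.91 for Cr2 (95% interval 0.44 to 1.379, adjusted p = 0.237) and 0.56 for Fcrla (0.179 to 0.941, adjusted p = 0.299). It was 0.512 for Ebf1 (0.067 to 0.957, adjusted p = 0.385), 0.371 for Blnk (-0.101 to 0.842, adjusted p = 0.567) and 0.081 for Cd79b (-0.246 to 0.409, adjusted p = 0.886). The sign of Cd22 turned to 0.497 (-0.212 to 1.206, adjusted p = 0.609) and, against the deprived diet, to 0.702 (-0.178 to 1.582, adjusted p = 0.546).

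**Figure D3:**
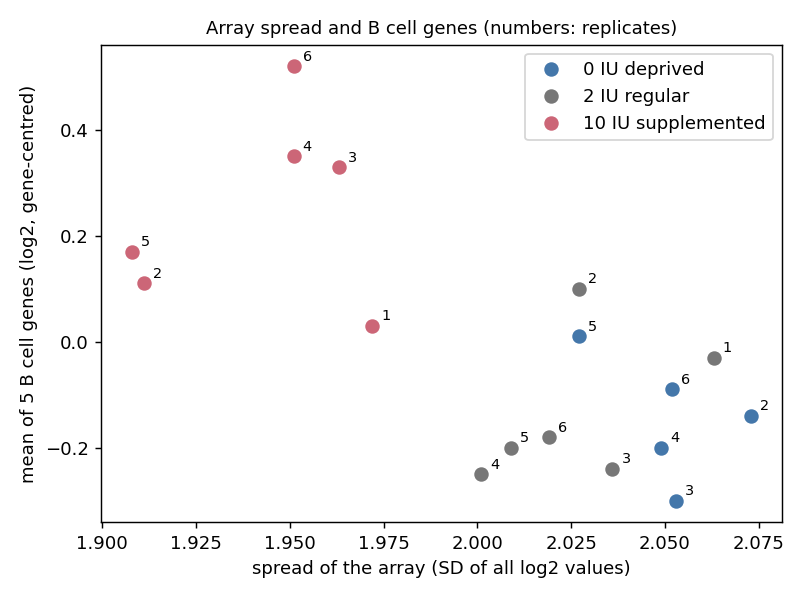
Spread of each array (SD of all log2 values, horizontal axis) and the mean of 5 B cell genes after centring each gene on its mean over 17 arrays (Cd79b, Cr2, Fcrla, Ebf1 and Blnk, log2 scale, vertical axis); numbers are replicates. The 6 supplemented arrays have the smallest spreads. Among them, replicates 2 and 5 are the narrowest (1.911 and 1.908), with means of 0.11 and 0.17. Replicate 1 is the widest (1.972), with a mean of 0.03.

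The supplemented samples differed among themselves. The mean of the 5 tested genes other than Cd22, each centred on its mean over the 17 arrays, was 0.52 in supplemented replicate 6, 0.35 in replicate 4 and 0.33 in replicate 3. It was 0.17, 0.11 and 0.03 in replicates 5, 2 and 1. Cd22 was left out of this mean after its direction had been seen, and no test was made of it. Replicate 6 held the highest value of all 17 arrays for 4 of the 7 genes, Cd79b, Ms4a1, Ebf1 and Blnk. Its spread was 1.951, close to that of replicates 3 and 4 (1.963 and 1.951). Replicates 2 and 5 had the smallest spreads (1.911 and 1.908) and replicate 1 the largest of this diet (1.972). Without supplemented replicate 6, 2 of the 6 genes (Cr2 and Fcrla) were called higher than on the regular diet, where 9.84% of all genes were higher and 22.3% lower. Cr2 had passed the filter on dim genes only through its supplemented arrays. On the regular diet, replicate 2 was highest in Cd79b, Ms4a1, Cr2, Fcrla and Blnk.

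**Figure D4:**
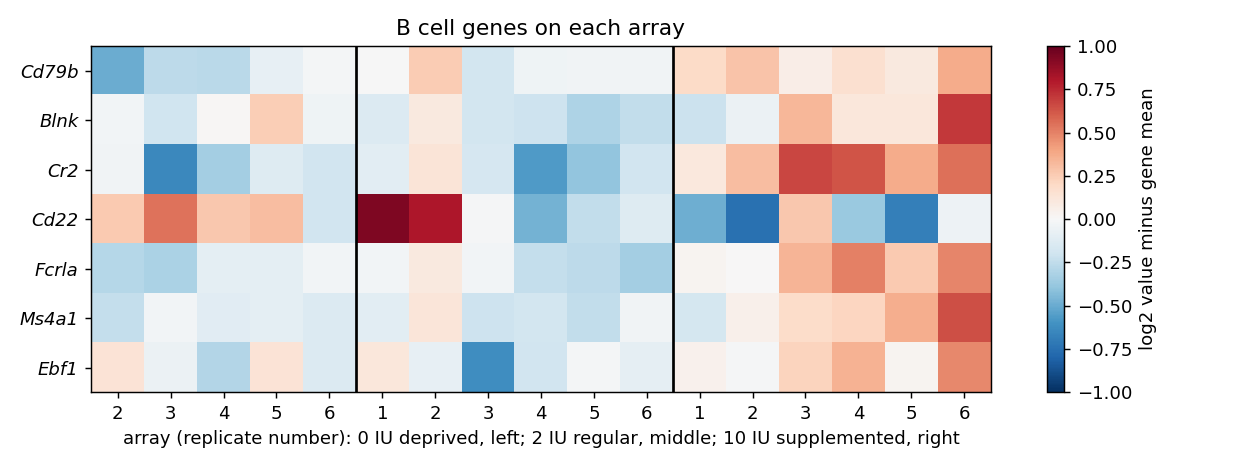
Log2 value minus the gene's mean over 17 arrays (colour scale from -1 to 1) for the 7 B cell genes in rows and the arrays in columns, with deprived, regular and supplemented arrays from left to right. Supplemented replicates 3, 4 and 6 are high in most genes, and Cd22 is highest in regular replicates 1 and 2.

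Within diets the 7 genes were compared pair by pair. After each diet's mean was subtracted, all 21 pairs of genes had a positive Pearson correlation over the 17 arrays, from 0.12 to 0.79 with a median of 0.4. The highest was between Ms4a1 and Blnk (0.79, Spearman 0.48), followed by Fcrla and Blnk (0.74, Spearman 0.73) and Cr2 and Fcrla (0.68, Spearman 0.68). Cr2 and Blnk had 0.65 and the highest Spearman value, 0.74. The 6 pairs with Cd22 ran from 0.12 to 0.52, although the mean of Cd22 lay lower on the supplemented diet. Without supplemented replicate 6 the 21 pairs ran from 0.06 to 0.77 with a median of 0.37, with Cr2 and Blnk the highest (0.77) and Ms4a1 and Blnk at 0.6. These values are descriptions of arrays that share a normalization. Pairs of other genes were not measured beside them, so the share of positive pairs among genes of like level is not known.

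Outside all the lists, the genes most like the mean of the 6 tested B cell genes in these deviations were Cxcl10 (r = 0.83), Oit3 (0.82), Cybb (0.81), Ttc33 (0.8) and Wdr46 (0.78), over 17 arrays. These were the highest values of r among the tested genes outside the lists, with 10879 genes tested in all. Whether so large a search gives such values by chance was not tested. No link of these genes to the B cell genes is read from them. Cxcl10 encodes an interferon-induced chemokine and Cybb the membrane subunit of the phagocyte NADPH oxidase. On the supplemented minus the regular diet, Oit3 (0.218, adjusted p = 0.00644) and Cybb (0.426, adjusted p = 0.0251) were higher and Wdr46 was lower (-0.305, adjusted p = 0.0115). Cxcl10 was at -0.051 (adjusted p = 0.756) and Ttc33 at -0.039 (adjusted p = 0.64).

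Other B cell genes were counted beside the shares of all genes at like levels. Of 21 other B cell surface and transcription factor genes, 17 were on the array and 13 were tested. On the supplemented diet 3 of the 13 were higher than on the regular diet, 0 lower and 10 did not pass (median 0.093). Of the 13, 10 were in level groups 1 and 2, where 18.1% and 15.2% of all genes were higher. Bcl11a, a transcription factor of early lymphoid development, was higher by 0.329 (SE 0.083, adjusted p = 0.00449), the factor Spib by 0.238 (SE 0.081, adjusted p = 0.0283) and Ly86, the partner of a Toll-like receptor homologue on B cells, by 0.195 (SE 0.071, adjusted p = 0.0391). Against the deprived diet 4 of the 13 were higher, 0 lower and 9 did not pass (median 0.206), with Bcl11a at 0.593 (SE 0.087, adjusted p = 1.5e-05) and no overlap between the diets. In level groups 1 and 2, 34.4% and 26.9% of all genes were higher in that comparison.

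Other genes of B cell receptor signalling were called in both directions. Of the 12 such genes with an annotated row, 9 were tested. Against the regular diet 2 were higher, 4 lower and 3 did not pass (median -0.158), and against the deprived diet 2 were higher, 5 lower and 2 did not pass (median -0.191). Of the 9, 4 were in level group 1, 3 in group 3 and 2 in group 4. Those called higher were in group 1 and those called lower in groups 3 and 4. Against the regular diet 18.1% of all genes in group 1 were higher, and 28.6% in group 3 and 52.6% in group 4 were lower. Against the deprived diet these shares were 34.4%, 35.6% and 65.3%. The B cell receptor regulator Cd72 was higher by 0.264 (SE 0.076, adjusted p = 0.0108) than on the regular diet. The phosphatases Ptpn6 (-0.38, SE 0.067, adjusted p = 0.000196) and Inpp5d (-0.343, SE 0.08, adjusted p = 0.0023), which T cells use as well, were lower.

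MHC class II genes, which B cells share with other antigen-presenting cells, had 8 tested members of 9. On the supplemented diet 2 were higher, 0 lower and 6 did not pass, both against the regular diet (median 0.12) and against the deprived diet (median 0.196). Of the 8, 2 were in level group 1 and 3 in group 2. In those groups 18.1% and 15.2% of all genes were higher against the regular diet, and 34.4% and 26.9% against the deprived diet. Ciita, the class II transactivator, was higher than on the regular diet by 0.274 (SE 0.053, adjusted p = 0.000436) without overlap, and RT1-Bb, a class II beta chain, by 0.277 (SE 0.091, adjusted p = 0.0229). RT1-Ba was at 0.143 (adjusted p = 0.285) and Cd74, the invariant chain, at -0.088 (adjusted p = 0.774, SE 0.223). Of 5 tested plasma cell genes, 1 was higher in each supplemented comparison, the proteoglycan Sdc1 (0.25, SE 0.071, adjusted p = 0.0101, against the regular diet), and 4 did not pass, among them Irf4 (-0.186, adjusted p = 0.063) and Prdm1 (-0.103, adjusted p = 0.366). Of all tested genes, 10.8% were higher against the regular diet and 18.6% against the deprived diet.

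**Figure D5:**
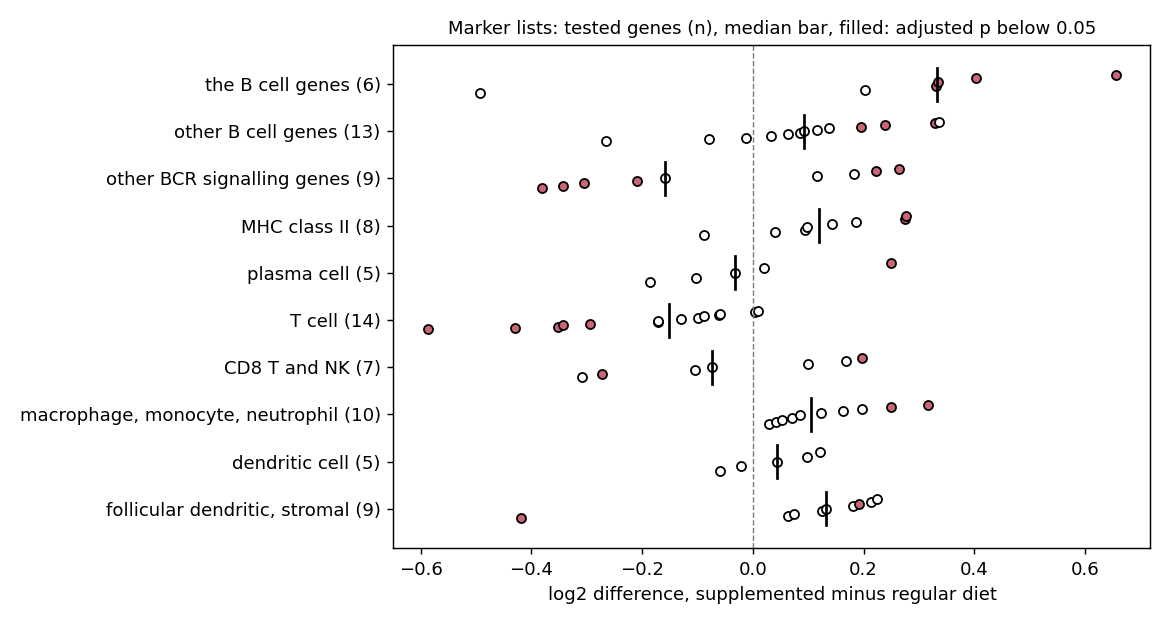
Difference of mean log2 values between supplemented and regular diet for each tested gene of 10 marker lists (number tested in brackets); bars are list medians and filled points have an adjusted p below 0.05. The B cell genes have a median of 0.333 and the T cell markers, all in level group 4, a median of -0.151, against -0.207 for all genes of that level group; the lists differ in level and their medians are not to be ranked.

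Markers of the sorted cells and of other cells were read beside the B cell genes. Of 14 T cell markers, 0 were higher, 5 lower and 9 did not pass against the regular diet. All 14 were in level group 4, where 52.6% of all genes were lower. Cd4, whose protein was the sorted marker, changed by -0.587 (SE 0.108, adjusted p = 0.000301), the receptor subunit Cd3d by -0.352 (SE 0.058), Cd3e by -0.294 (SE 0.078) and the kinase Lck by -0.429 (SE 0.072). The mean log2 value of the T cell list ran from 10.2 to 10.38 on deprived, 10.21 to 10.42 on regular and 9.99 to 10.19 on supplemented arrays. Macrophage, monocyte and neutrophil markers had 2 of 10 tested genes higher and 8 not passing, with Tyrobp at 0.317 (SE 0.084, adjusted p = 0.00627), C1qb at 0.25 (SE 0.086, adjusted p = 0.0293) and Cd68 at 0.197 (adjusted p = 0.149). Their list mean was 5.61 to 5.77 on deprived, 5.64 to 5.75 on regular and 5.78 to 5.84 on supplemented arrays, and 5 of the 15 genes lay below the filter on dim genes. Of the 10 tested, 8 were in level groups 1 and 2, where 18.1% and 15.2% of all genes were higher. The median change of the 10 from the regular diet was 0.105, against 0.11 and 0.061 for all genes of those groups.

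Follicular dendritic and stromal markers, of interest because Cr2 and Ebf1 are expressed by such cells, had 1 of 9 higher, 1 lower (Pecam1, -0.419, SE 0.087, adjusted p = 0.000938) and 7 not passing against the regular diet. Against the deprived diet 4 of 9 were higher, among them the chemokine Ccl21 (0.431, SE 0.1, adjusted p = 0.00148) and Pdpn (0.395, SE 0.098, adjusted p = 0.00258), 1 was lower and 4 did not pass. Level groups 1 and 2 held 3 of the 9 each. There 34.4% and 26.9% of all genes were higher than on the deprived diet, and 18.1% and 15.2% than on the regular diet. The list's median change from the deprived diet was 0.19, against 0.143 and 0.089 for all genes of those groups. The mean of this list was 6.32 to 6.48 on deprived, 6.4 to 6.71 on regular and 6.52 to 6.66 on supplemented arrays, and 1 of the 10 genes was below the filter. Dendritic cell markers had 0 of 5 called against the regular diet in limma, and 0 at an unadjusted p below 0.05 (Flt3 at 0.121, Xcr1 at 0.098 and Ccr7 at -0.059). Against the deprived diet 1 of 5 was higher (Flt3, 0.248, SE 0.073, adjusted p = 0.00878) and 4 did not pass, where 18.6% of all genes were higher. Of 7 CD8 T and NK cell markers, Ncr1 was higher than on the regular diet (0.198, adjusted p = 0.0352) and Cd8b lower (-0.273, adjusted p = 0.0311). The other 5 did not pass, with Cd8a at -0.309 (adjusted p = 0.0737). Of all tested genes, 10.8% were higher and 22.9% lower in that comparison. In deprived minus regular diet 0 of the 80 tested genes of these other lists passed in limma, and 9 had an unadjusted p below 0.05. Of all genes, 1.67% passed and 16.7% had an unadjusted p below 0.05. The part of the other cell types, of the array spread and of the level of the genes in the differences of the B cell genes was not tested.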

How the data were processed

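The deposited table holds a log2 level for every transcript cluster of an Affymetrix rat gene array in each sample, and the submitters' processing notes name RMA (background correction, quantile normalization and summarization of probes) and Partek 6.0. Log base 2 was inferred from how far the values reach. The sources name no genome build, probe file or scan batch. Precision is limited by the number of arrays, and without detection calls a dim value is not shown to be expression.

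Of 29214 clusters, 15310 were paired with 1 gene symbol by the platform annotation, 323 with several, and 13581 were not listed; 15279 of those with 1 symbol were matched to RefSeq, whose symbol was used. Each of 14506 genes was represented by its cluster with the highest mean, and the lowest 25% of genes were left out. A linear model over the 3 diets was fitted to all 17 arrays with limma 3.58.1 in R 4.3.3 (lmFit, eBayes; 14 residual and 8.19 prior degrees of freedom), with Benjamini-Hochberg adjustment over 10879 genes at 0.05; SE and 95% intervals are the model's. The code was tested on simulated data. Replicates are labelled biological, with no statement on how they were handled, so p-values reflect only sample-to-sample spread, which may be technical. The B cell genes and lists were chosen with earlier results of these data known. Other genes named are Cd4, Cd3e, Cd74, the up to 3 genes of each list with the smallest F-test p, and the 5 genes outside the lists most correlated with the B cell genes. No arrays were identical (136 pairs, correlation 0.9773 to 0.9954).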

Additional observations from a re-analysis of the deposited data

How the results depend on the processing

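The count of B cell genes called between supplemented and regular diet (4 of 6) was 2 after cyclic loess, and 0 with the lowest 50% of genes left out, where 2 of the genes were still tested, and 0 with array spread as a covariate. Leaving out 1 array gave 2 to 5, beside 7.16% to 13.4% of all genes higher and 19.8% to 23.7% lower. Between supplemented and deprived diet (4 of 6) the count was 2 with the lowest 50% left out, where 10.8% of all genes were higher and 41.8% lower. With the spread covariate it was 0, as it was over all genes. Without single arrays it was 3 to 4, beside 14.6% to 21.1% of all genes higher and 25.5% to 29% lower. For any difference among diets (4 of 6) the count was 1, 0 and 3 to 5 in the same order. The shares of all genes were not counted for that test under the alternatives. The 0 calls between deprived and regular diet were 0 under every alternative run. With array weights, for instance, 6.19% of all genes were higher and 1.99% lower there. Cr2 and Fcrla passed in both supplemented comparisons, and Cd79b against the deprived diet, under each alternative that tested them except the spread covariate. Cr2 entered the main test only through its supplemented arrays. With no filter on dim genes its limma adjusted p was 0.000217 against the regular and 9.15e-05 against the deprived diet. Signs turned for Cd22 with the spread covariate (0.497 and 0.702 for supplemented minus regular and minus deprived, -0.205 for deprived minus regular). They also turned in deprived minus regular, where no gene was called, for Cr2 without deprived replicate 3 (0.0422) or regular replicate 2 (0.016), for Fcrla with array weights (0.00937), without deprived replicate 3 (0.000372) or regular replicate 2 (0.0112), and for Cd22 without regular replicate 4 (-0.0286). Leaving out single arrays there gave -0.124 to 0.0422 for Cr2, -0.0777 to 0.0112 for Fcrla and -0.0286 to 0.25 for Cd22. The cause was not tested. Median centring moved the median of all genes to -0.078 and -0.103 in supplemented minus regular and minus deprived. The labels do not say whether equal replicate numbers pair the arrays. Of 16 same-numbered pairs, 4 correlated above 0.1 in their deviations (range -0.207 to 0.195), which has no reference beside it and cannot decide this. With the replicate block the counts were 4, 0, 4 and 4, as without it. In that fit 10.6% of all genes were higher and 22.7% lower in supplemented minus regular diet. The shares were 1.09% and 0.239% in deprived minus regular, and 19.3% and 29.7% in supplemented minus deprived. Dim signal limits Ms4a1, Cr2 and Blnk most.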
